A study of Mus musculus with 48 samples.

Results

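Cholesterol synthesis and transport were followed through 29 genes, listed by name as a pathway, out of 48795 genes in the deposited counts. They comprise 9 genes from acetyl-CoA to squalene and the prenyl branch, 11 from squalene to cholesterol, 5 that sense sterols, and 4 of transport and turnover. RNA was sequenced from the cerebral cortex of 48 mice, all labelled C57BL/6 and 12 months old, with 4 females and 4 males in each of 6 genotypes. Wild type, Msh3+/- and Msh3-/- were each present without and with Q140, the latter called Q140, Q140 with Msh3+/- and Q140 with Msh3-/-. Q140 is a knock-in of an expanded CAG repeat into Htt, the Huntington disease gene, and every carrier was labelled heterozygous. Msh3 encodes a mismatch repair protein that acts on CAG repeats. No promoter or Cre that would limit either allele to a cell type is named, and the altered part of Msh3 is not given in the sources used here. The extraction protocol names striatum at another age, while every other label names cortex at 12 months, and the latter was used.

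The brain makes nearly all of its own cholesterol, because lipoproteins of the blood do not cross the blood-brain barrier. When sterols in the endoplasmic reticulum fall, SCAP carries the transcription factor precursors SREBP1 and SREBP2 (genes Srebf1 and Srebf2) away from the retention proteins INSIG1 and INSIG2, and the released factors switch on synthesis and uptake genes. In the adult brain astrocytes export cholesterol on apolipoprotein E, and neurons dispose of it by hydroxylation through CYP46A1. Lower sterol synthesis in Huntington disease models is a recurring topic in the field, which is the question these values bear on.

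Library totals ran from 37.7 to 68.3 M counts (M, mega), with a median of 48.6 M. All 29 genes were tested, as were 19547 genes in all, and the lowest count of any of the 29 in any library was 216, for Idi1. Defining markers of cortical neurons and astrocytes were abundant everywhere: 8 glutamatergic neuron markers summed to 6451 to 7867 CPM (counts-per-million of the TMM-normalized library total) and 10 astrocyte markers to 5360 to 7074 CPM, none at 0. The Msh3 count went against a simple loss of transcript. It was 20.5 to 23.5 CPM in wild type, 55.3 to 64.7 in libraries labelled Msh3+/- and 84.2 to 108 in those labelled Msh3-/-, so the Msh3 genotypes below are those of the labels. A library labelled Msh3+/- (M2) summed to 630 CPM of choroid plexus markers against a median of 7.58, and a wild-type library (M2) to 45.4 CPM of pituitary markers against 0.745. Leaving out both changed no call among the 29 genes. The tissue is bulk, so fewer cells of a type and less RNA per cell cannot be told apart.

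Levels between genes were compared per length, as FPKM (counts scaled to gene length and library total). Apoe, which encodes the lipoprotein of astrocytes, was the most abundant of the set at 418 ± 32.6 FPKM (SD, n = 48), with libraries from 347 to 506. Cyp46a1 followed at 114 ± 5.38 FPKM and Hmgcs1, encoding the synthase that makes HMG-CoA, at 77.7 ± 5.78. In FPKM the libraries of these 3 genes did not overlap one another. In CPM, which is not divided by length, Cyp46a1 (213 to 265) and Hmgcs1 (209 to 302) did. Srebf2, at 54.0 ± 2.85 FPKM, stood well above its paralog Srebf1 at 9.20 ± 0.785. Among the genes that hold SREBP back or escort it, Insig1 had 23.1 ± 3.17 FPKM, Scap 13.6 ± 0.82 and Insig2 10.7 ± 0.522.

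The path to squalene spanned from 1.84 FPKM (Idi1, isopentenyl diphosphate isomerase) to 77.7, with a median of 9.19 over its 9 genes. After Hmgcs1 came Fdft1, squalene synthase, at 27.1 FPKM, Ggps1, which diverts farnesyl diphosphate towards geranylgeranyl groups, at 16.2, and the phosphomevalonate kinase gene Pmvk at 15.7. The diphosphomevalonate decarboxylase gene Mvd and the cytosolic thiolase gene Acat2 each averaged 9.19 FPKM. Mevalonate kinase (Mvk) stood at 5.73 and farnesyl diphosphate synthase (Fdps) at 2.80. In FPKM the 11 genes from squalene onwards were lower, with a median of 5.54. That rests on the gene lengths used as divisors, and in CPM the segments were not ordered this way. For example, Sc5d, Sqle and Lss averaged 51.5, 52.0 and 51.7 CPM, with lengths of 2328, 5546 and 10787 bp. By FPKM Sc5d, a sterol desaturase, led at 22.1, followed by the lanosterol demethylase gene Cyp51 at 13.4. The methylsterol oxidase gene Msmo1 had 10.5 and squalene epoxidase, Sqle, 9.38. Nsdhl, Ebp, Hsd17b7, Dhcr7 and Lss, which carry out other steps between squalene and cholesterol, lay between 4.79 (Lss) and 7.32 FPKM (Nsdhl). The sterol reductase genes Tm7sf2 (4.23) and Lbr (2.43) were the lowest of this segment in FPKM. The carrier gene Stard4 had 6.86 and the exporter gene Abca1 5.12 FPKM. Many neighbours in this order did not differ beyond their spread, for example Srebf1, Mvd and Acat2. Levels of Fdps, Idi1, Fdft1, Acat2 and Ggps1 are uncertain, because transcripts of near-identical genes or pseudogenes share 95% or more of their bases over at least 300 bp. Fdft1 also overlaps Ctsb on the opposite strand over 774 bp, and the strand setting of the counting is not given in the sources used here. The level of Tm7sf2 is uncertain as well, because 12.1% of its exonic bases (532 bp) overlap Vps51 on the same strand. Vps51 had a mean count of 1997 and Tm7sf2 of 729.

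**Figure D1:**
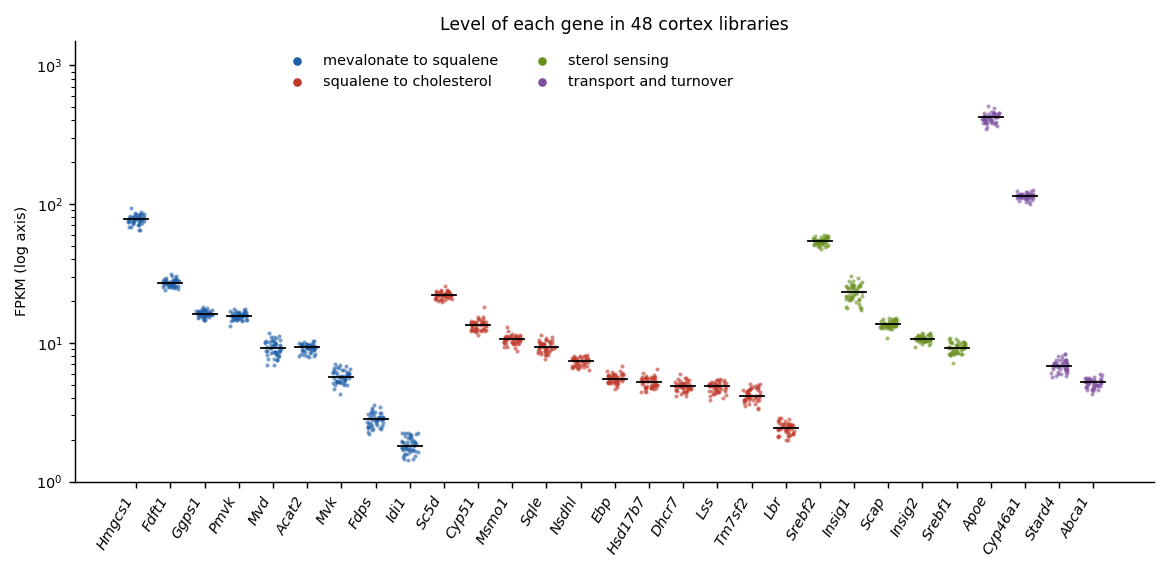
Level of each of the 29 genes (FPKM, log axis) in 48 cortex libraries, 1 point per library, coloured by role; black bars are medians. Apoe, Cyp46a1 and Hmgcs1 lie above all others, and the spread between libraries is widest for Insig1.

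Differences between genotypes were small beside these differences between genes. The highest group mean of a gene was 1.03 to 1.21 times its lowest group mean, with a median of 1.08, and the ratio was under 1.1 for 25 of 29 genes. The coefficient of variation over 48 libraries ran from 4.67% (Cyp46a1) to 13.5% (Insig1). By CPM, 16 of the 29 genes had their lowest group mean in wild type, 8 in Msh3-/-, 3 in Q140 with Msh3+/-, 2 in Q140, and none in Msh3+/- or Q140 with Msh3-/-. All comparisons with wild type share the same 8 wild-type libraries, and many of the 29 genes varied together, as given further on. These counts are therefore not separate observations. The same count was not made over all genes tested.

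Promoters of 3 genes are shown because Hmgcs1 holds the SREBP letters searched, and Insig1 and Hsd17b7 were the pair of the set that varied most closely together, as given further on; the latter 2 were chosen after their values were seen. Each is the stretch from 150 to 51 bases before the RefSeq start of transcription (GRCm38.p6), and capitals mark matches on either strand to TCACNCCAC (SREBP), CCAAT (NF-Y) or CACGTG (E-box). Hmgcs1 lies on the plus strand at chr13:119690201-119690300, Insig1 on the plus strand at chr5:28071262-28071361 and Hsd17b7 on the minus strand at chr1:169969256-169969355.
Hmgcs1: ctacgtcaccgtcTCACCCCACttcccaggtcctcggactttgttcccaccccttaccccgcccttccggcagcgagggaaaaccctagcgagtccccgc
Insig1: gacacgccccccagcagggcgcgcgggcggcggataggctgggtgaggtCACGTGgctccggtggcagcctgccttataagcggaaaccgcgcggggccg
Hsd17b7: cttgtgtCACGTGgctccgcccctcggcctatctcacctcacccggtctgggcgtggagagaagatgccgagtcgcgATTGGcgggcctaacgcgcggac

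Promoter windows of 250 bases before to 50 after the start were held for 25 of the 29 genes. Those of Fdft1, Fdps, Sqle and Stard4 were not held. TCACNCCAC occurred in 1 of the 25 genes, Hmgcs1, against 1.24% of 32851 windows of the same length. CCAAT occurred in 21 of 25 genes (22 of their 35 windows), against 37.4% of all windows. CACGTG occurred in 6 of 25 genes (Abca1, Dhcr7, Hsd17b7, Insig1, Sc5d and Scap; 7 of 35 windows), against 7.15% of all windows. The motifs do not overlap one another in the stretches shown. A match describes the letters and is no evidence of binding.

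The first comparison asked whether the knock-in changed these genes on its own. Between Q140 and wild type none of the 29 genes passed the test (edgeR quasi-likelihood, adjusted p under 0.05 over all genes tested), and 0.102% of all genes did. At an unadjusted p under 0.05 there were 5 genes, all higher in Q140, which is 17.2% of the set against 8.8% of all genes. The median log2 fold change of the set was 0.041, against 0.00063 over all genes, and 22 of 29 values lay above 0. The median was 0.021 without the Q140 male M4, 0.062 without the Q140 female F3 and 0.064 without the Q140 male M2. Without the 10 libraries highest in choroid plexus or pituitary markers it was 0.088, with 25 of 29 above 0. Those 10 included the wild-type libraries F4, M2, M3 and M4, but only M2 of Q140. Wild type was therefore much smaller in that fit, kept F3 and had M1 as its only male.

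Mvk, the first kinase after mevalonate, stood furthest from 0. It ran from 11.5 to 14.4 CPM (median 13.96) in the 8 wild-type libraries and from 13.3 to 18.5 CPM (median 15.9) in the 8 Q140 libraries. The groups overlapped at their edges. The log2 fold change was 0.21 ± 0.063 (SE; edgeR adjusted p = 0.255). The next kinase gene, Pmvk, had 22.9 to 27.6 CPM (median 25.2) in wild type and 25.2 to 29.1 CPM (median 27.9) in Q140, again overlapping, with a fitted log2 fold change of 0.11 ± 0.042 (edgeR adjusted p = 0.427). Sqle, a regulated step of the later pathway, had 42.5 to 55.3 CPM (median 50.3) in wild type and 45.0 to 63.0 CPM (median 54.5) in Q140, a difference of 0.12 ± 0.054 (edgeR adjusted p = 0.52). The other 2 of the 5 belong to the sterol sensor: Scap at 0.079 and Srebf2 at 0.073 on the log2 scale. The lowest wild-type value of Mvk, Sqle, Scap, Srebf2 and Pmvk was that of the same female, F3. Without F3 the edgeR adjusted p of Mvk was 0.513 and that of Pmvk 0.738, the highest of the fits that left out 1 library. The library names of F3 and of the wild-type female F4 begin with letters, MQC and PQ, that no other library name has. The names of the Q140 female F4 and the Q140 male M4 begin with Msh3Q, and all remaining names begin with Mh3Q. What these letters stand for is not given in the sources used here, and their part in the wild-type and Q140 values was not tested.

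Wild-type and Q140 libraries also lay in different columns of the library plate, as read from the well address in the labels: 4 of the 8 wild-type libraries came from column 3, which held no Q140 library, and 3 of the 8 Q140 libraries from column 1, which held no wild-type library. With plate column as a term in the fit, the median over the 29 genes was 0.014 in place of 0.041, with 19 values above 0 and 1 gene at an unadjusted p under 0.05, Mvk stood at 0.17 (edgeR adjusted p = 0.75) and Sqle at 0.052 (adjusted p = 0.957). The part of the plate in these differences was not tested further.

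The knock-in was also compared on the other Msh3 backgrounds. In Q140 with Msh3+/- against Msh3+/-, none of the 29 genes passed (0.0512% of all genes did), and 1 gene had an unadjusted p under 0.05, or 3.45% against 7.77% of all genes (edgeR). That gene was Fdps, which makes the farnesyl diphosphate used for sterols and for prenylation. It had 10.1 to 12.1 CPM (median 11.3) without and 9.17 to 14.3 CPM (median 13.02) with Q140, a fitted log2 fold change of 0.17 ± 0.07 (edgeR adjusted p = 0.539). Ebp and Sqle came next at 0.099 and 0.082. The median over the set was -0.0099, and between -0.019 and 0.005 when single libraries were left out. In Q140 with Msh3-/- against Msh3-/-, none passed (0.0205% of all genes), and 1 gene, Cyp46a1, had an unadjusted p under 0.05, again 3.45%, against 6.77% of all genes (edgeR). Cyp46a1 had 240 to 265 CPM (median 250.1) in Msh3-/- and 224 to 250.4 CPM (median 237) with Q140, a fitted log2 fold change of -0.079 ± 0.03 (edgeR adjusted p = 0.703). Srebf2 (0.067) and Nsdhl (0.09) came next, the median was 0.033, and 23 of 29 values lay above 0. The median was 0.015 without the female F3 labelled Q140 with Msh3-/-, and 0.019 with the plate term, with 21 of 29 above 0.

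Averaged over the 3 Msh3 genotypes, 24 Q140 carriers were set against 24 non-carriers, the genotype comparison with the smallest errors. None of the 29 genes passed here either, against 1.47% of all genes, or 288 genes. At an unadjusted p under 0.05 there were 5 higher genes (Sqle, Mvk, Srebf2, Scap and Fdps) and 1 lower gene (Cyp46a1), which is 20.7% of the set against 15.1% of all genes (edgeR). The median was 0.031 against -0.00084 over all genes, and 23 of 29 values lay above 0, or 79.3% against 49.5%. With the plate column term the median was 0.0077, 15 of 29 values lay above 0 and 3 genes had an unadjusted p under 0.05. Without the Q140 male M4 the median was 0.013, and without the 10 libraries highest in choroid plexus or pituitary markers 0.047. The 95% intervals of all 29 genes lay between -0.119 and 0.183 on the log2 scale, that is, between a decrease of 7.89% and an increase of 13.6%. The largest fitted difference of the set was 0.11, for Mvk.

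Sqle had 42.5 to 56.0 CPM (median 50.7) in non-carriers and 45.0 to 63.0 CPM (median 54.1) in carriers, and 16 of 24 carriers lay above the non-carrier median. Its log2 fold change was 0.095 ± 0.031 (edgeR adjusted p = 0.108). Without the Q140 male M2 the adjusted p was 0.04998, and with a plate column term the difference was 0.052 (adjusted p = 0.57). Mvk had 11.5 to 17.8 CPM (median 14.7) in non-carriers and 13.2 to 18.8 CPM (median 16.1) in carriers, with 18 of 24 carriers above the non-carrier median and a fitted log2 fold change of 0.11 ± 0.036 (edgeR adjusted p = 0.123; 0.468 with the plate term).

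Cyp46a1 had a negative fitted value and did not pass. Its product hydroxylates cholesterol in neurons, the main route by which the brain clears it. Non-carriers had 213 to 265 CPM (median 248) and carriers 220.1 to 259.7 CPM (median 235), and 4 of 24 carriers lay above the non-carrier median. The log2 fold change was -0.051 ± 0.017 (edgeR adjusted p = 0.113; -0.049 and 0.314 with the plate term). The 8 glutamatergic neuron markers summed to 6811 to 7867 CPM (median 7474) in non-carriers and 6451 to 7467 CPM (median 6952) in carriers, and 1 of the 8, Camk2a, fell. The part of neuronal content in the Cyp46a1 value was not tested. Apoe had a fitted log2 fold change of -0.059 ± 0.03 in carriers (edgeR adjusted p = 0.354). Beside it, 5 of 10 astrocyte markers fell and none rose, and no marker of the list was at 0. Their sums were 5694 to 7074 CPM (median 6526) in non-carriers and 5360 to 6266 CPM (median 5822) in carriers. Of all genes, 1.47% were called in this comparison and 15.1% had an unadjusted p under 0.05 (edgeR). The part of the astrocyte markers in the Apoe value was not tested.

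The remaining landmarks were level between carriers and non-carriers within these errors. Hmgcs1 differed by -0.002 ± 0.03 (95% interval -0.061 to 0.057) and Abca1, which loads cholesterol onto apolipoproteins, by -0.0017 ± 0.03. Insig1 differed by 0.025 ± 0.058, the widest error of the set.

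**Figure D2:**
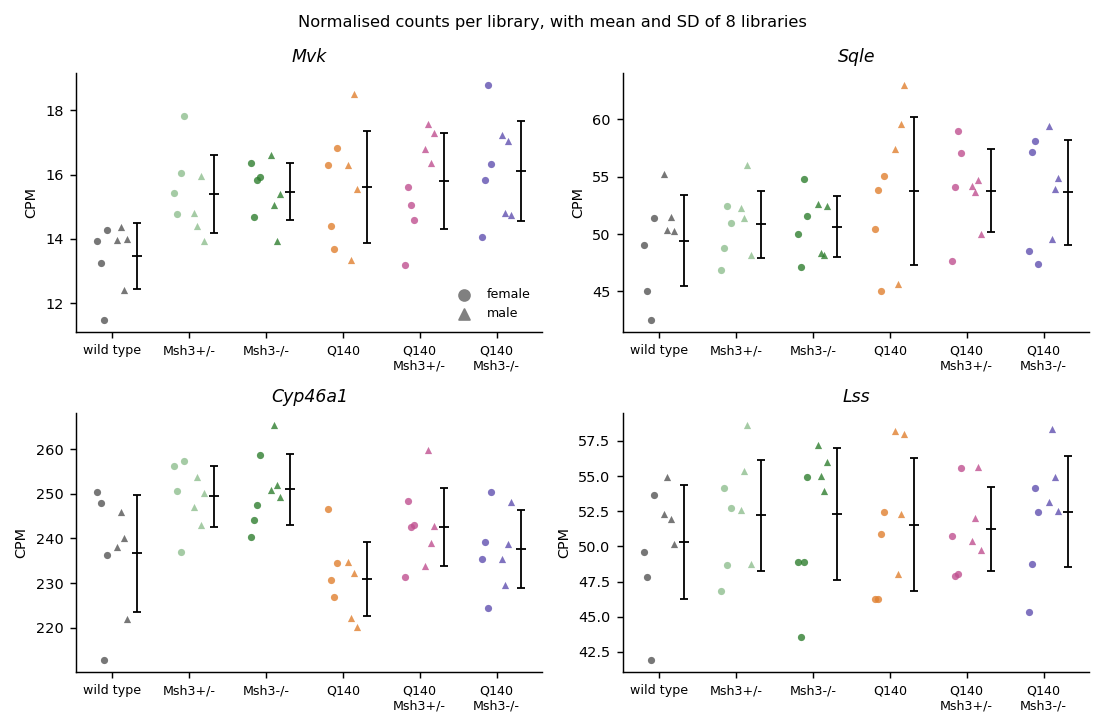
Normalised counts (CPM) of Mvk, Sqle, Cyp46a1 and Lss in each library by genotype, circles for females and triangles for males, with the mean and SD of 8 libraries as black bars. The axes do not start at 0. Wild type is the lowest group for Mvk (11.5 to 14.4 CPM), Q140 is the lowest for Cyp46a1, and males tend to lie above females for Lss.

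**Figure D3:**
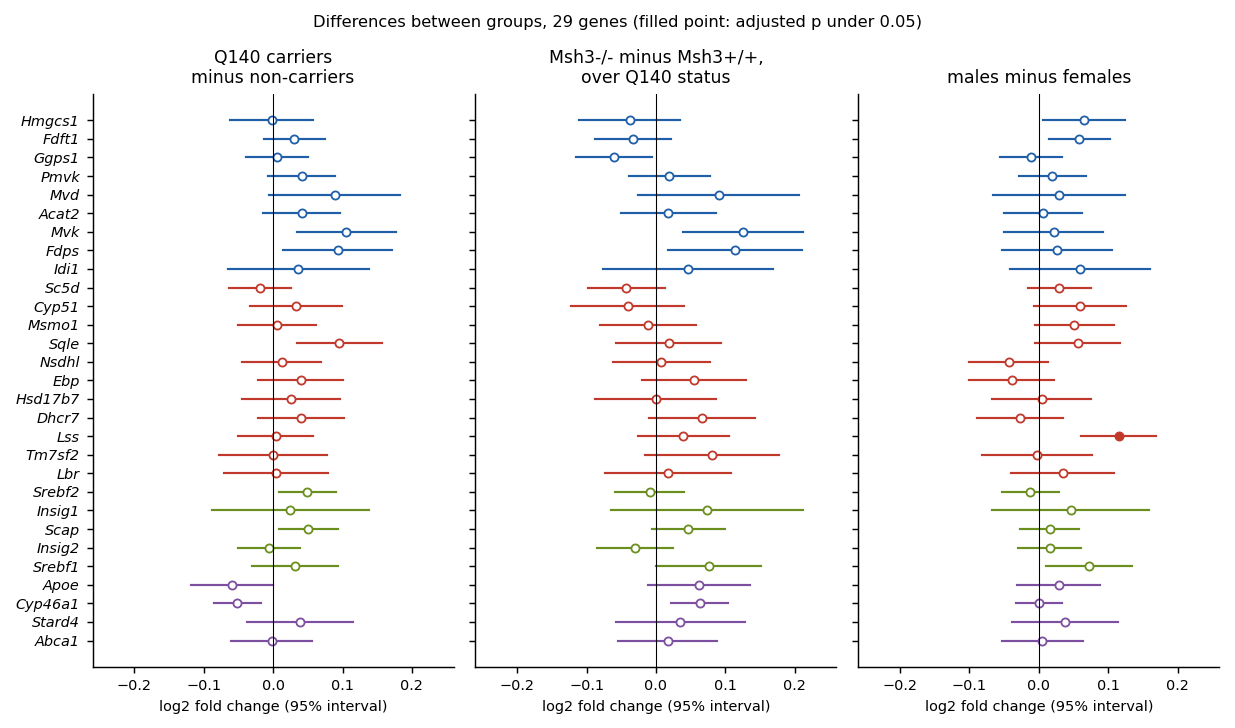
Log2 fold change of each gene with its 95% interval for Q140 carriers against non-carriers, Msh3-/- against Msh3+/+ over Q140 status, and males against females, coloured by role as in the plot of levels. A filled point marks an edgeR adjusted p under 0.05, which Lss alone reached, in the comparison of the sexes.

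Msh3 genotype was compared first without Q140. In the libraries labelled Msh3+/- against wild type none of the 29 genes passed (0.0307% of all genes did), and 3 genes were higher at an unadjusted p under 0.05, or 10.3% against 4.96% of all genes (edgeR). In Msh3-/- against wild type none passed (0.113% of all genes), and 2 genes were higher and 1 lower, again 10.3%, against 10.8% of all genes. Mvk led both, at 0.19 ± 0.064 (edgeR adjusted p = 0.963) and 0.20 ± 0.063 (adjusted p = 0.284), with 13.9 to 17.8 CPM in Msh3+/- and 13.9 to 16.6 CPM in Msh3-/-, both overlapping wild type. These 2 comparisons and that of Q140 share the wild-type libraries, in which Mvk was lowest, so its 3 differences are not independent. Cyp46a1 stood at 0.076 in Msh3+/- and 0.085 in Msh3-/- on the log2 scale, Pmvk at 0.097 in Msh3+/-, and Ggps1 at -0.095 in Msh3-/-. The medians over the set were 0.041 and 0.039, and 0.024 and 0.022 without the wild-type female F3. For Msh3-/- it was 0.023 without the Msh3-/- female F3, 0.058 without the wild-type female F4 and 0.06 without the 10 libraries. With the plate column term the medians were 0.034 in Msh3+/- and 0.027 in Msh3-/-.

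In Q140 with Msh3+/- against Q140, none of the genes passed (0.0307% of all genes), and Cyp46a1 alone had an unadjusted p under 0.05, against 6.22% of all genes (edgeR). It had 220.1 to 247 CPM (median 231) in Q140 and 231 to 259.7 CPM (median 243) in Q140 with Msh3+/-, a fitted log2 fold change of 0.071 ± 0.03 (adjusted p = 0.777). In Q140 with Msh3-/- against Q140, none passed (0.102% of all genes) and no gene had an unadjusted p under 0.05, against 6.86% of all genes. Cyp46a1 there had 224 to 250.4 CPM and a fitted log2 fold change of 0.041 ± 0.03, and Nsdhl (0.078) and Tm7sf2 (0.099) had the smallest p. Both comparisons share the Q140 libraries. With the plate column term none passed in either. At an unadjusted p under 0.05 (edgeR) there were then 3 genes for Q140 with Msh3+/-, beside 1418 of all 19547 genes. For Q140 with Msh3-/- there was 1, beside 1583 of all genes. Intervals of the 29 genes for Q140 with Msh3-/- against Q140 lay between -0.152 and 0.275 on the log2 scale.

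Over both Q140 states, 16 libraries labelled Msh3-/- were set against 16 Msh3+/+. None of the 29 genes passed (0.215% of all genes, or 42), and 3 genes were higher and 1 lower at an unadjusted p under 0.05, or 13.8% against 14.9% of all genes (edgeR). The higher genes were Cyp46a1, Mvk and Fdps and the lower one Ggps1. Cyp46a1 had 213 to 250.4 CPM (median 235) in Msh3+/+ and 224 to 265 CPM (median 246) in Msh3-/-, where 14 of 16 libraries lay above the Msh3+/+ median. Its log2 fold change was 0.063 ± 0.021 (edgeR adjusted p = 0.155). Mvk had 11.5 to 18.5 CPM (median 14.1) and 13.9 to 18.8 CPM (median 15.8), a fitted log2 fold change of 0.13 ± 0.044 (adjusted p = 0.178). Fdps stood at 0.11 ± 0.049 (adjusted p = 0.26) and Ggps1, which competes with sterol synthesis for farnesyl diphosphate, at -0.061 ± 0.028 (adjusted p = 0.286). With the plate column term none passed, and 5 genes had an unadjusted p under 0.05 (edgeR), beside 3096 of all 19547 genes. Ggps1, Hmgcs1 and Idi1 lie on chromosome 13, as Msh3 does, at 78.1, 27.3 and 83.3 Mb from it. Insig1, Cyp51 and Mvk lie on chromosome 5, as Htt does, at 6.7, 30.7 and 79.5 Mb from it.

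Whether the effect of Q140 differed with Msh3 genotype was tested directly. For Msh3+/- none of the 29 genes passed and neither did any other gene (0%), and at an unadjusted p under 0.05 the count was again 0, against 3.3% of all genes (edgeR). For Msh3-/- the figures were 0, 0%, 0 and 3.2%. The smallest p belonged to Pmvk for Msh3+/- (-0.12 ± 0.06, edgeR adjusted p = 0.999) and to Nsdhl for Msh3-/- (0.14 ± 0.071, adjusted p = 1). Mvk had -0.17 ± 0.089 and -0.15 ± 0.089, 2 values that share the Q140 and wild-type libraries. With the plate column term 1 gene had an unadjusted p under 0.05 (edgeR) for Msh3-/-, beside 737 of all 19547 genes, and 0 for Msh3+/-. For the interaction of Q140 with sex no gene passed (0% of all genes), and Pmvk alone had an unadjusted p under 0.05, against 2.61% of all genes, at -0.10 ± 0.048.

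Sex gave the only call in the set. Between 24 males and 24 females, 1 of 29 genes passed the test, against 4.28% of all genes, and 4 genes were higher in males at an unadjusted p under 0.05, or 13.8% against 17.4% of all genes (edgeR). The gene was Lss, lanosterol synthase, which closes squalene epoxide into the first sterol. Lss had 41.9 to 55.5 CPM (median 48.9) in females and 48.1 to 58.6 CPM (median 53.5) in males. The sexes overlapped, but 22 of 24 males lay above the female median, and the male mean was higher in 6 of 6 genotypes. The mean was 49.6 ± 3.65 CPM in females and 53.8 ± 3.11 CPM in males, and the log2 fold change was 0.11 ± 0.027 (edgeR adjusted p = 0.00785, and between 0.00307 and 0.0139 when single libraries were left out). With the plate column term the edgeR adjusted p of Lss was 0.022. Without the 10 libraries highest in choroid plexus or pituitary markers it was 0.027. In the wild type alone females averaged 48.3 ± 4.86 CPM and males 52.3 ± 1.95 CPM (n = 4 each).

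Fdft1, squalene synthase, was next, with 69.2 to 85.0 CPM in females and 71.5 to 90.4 CPM in males, 20 of 24 males above the female median and a fitted log2 fold change of 0.058 ± 0.023 (edgeR adjusted p = 0.139). With the plate column term it stood at 0.082 and its adjusted p was 0.024. Srebf1 (0.072) and Hmgcs1 (0.065) were the other 2 of the 4. Of the X-linked genes, Nsdhl stood at -0.043 and Ebp at -0.039, and neither passed. Beside these values, 4 of 10 oligodendrocyte markers were lower in males and none was higher. Their sums were 1673 to 2566 CPM (median 2029.6) in females and 1452 to 2161 CPM (median 1832) in males. Of all genes, 4.28% were called between the sexes and 17.4% had an unadjusted p under 0.05 (edgeR). The part of the oligodendrocyte markers in the Lss value was not tested.

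Other genes of sterol handling, 38 in a list, gave a few calls. In carriers against non-carriers 1 of the 38 was higher and 1 lower (edgeR adjusted p under 0.05), where 1.47% of all genes were called. Clu, encoding the apolipoprotein clusterin, had 523 to 686 CPM (median 617) in non-carriers and 500 to 648 CPM (median 571) in carriers, with a fitted log2 fold change of -0.11 ± 0.027 (adjusted p = 0.0179; 0.121 with the plate term, -0.11). Astrocytes express Clu, and the fall of astrocyte markers given above moved with it; their part was not tested. Cyp7b1, an oxysterol hydroxylase gene, had 7.19 to 9.65 CPM (median 8.34) and 7.82 to 10.9 CPM (median 9.17), a fitted log2 fold change of 0.14 ± 0.039 (adjusted p = 0.0433), and was called in 24 of 48 fits that left out 1 library. In Msh3-/- against Msh3+/+ 1 of the 38 genes was lower, where 0.215% of all genes were called: the mitochondrial thiolase gene Acat1, at -0.081 ± 0.019 (adjusted p = 0.0341; 0.0694 with the plate term), called in 36 of 48 fits that left out 1 library.

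In males against females 3 of the 38 genes were lower and none higher, where 4.28% of all genes were called. Lcat, which esterifies cholesterol on lipoproteins, had 10.8 to 20.3 CPM (median 16.1) in females and 10.8 to 14.9 CPM (median 12.9) in males, and no male lay above the female median (-0.30 ± 0.045, edgeR adjusted p = 1.65e-05). Cyp27a1, a sterol hydroxylase gene, fell by 0.29 and Nr1h3, the sterol receptor LXR alpha, by 0.23 on the log2 scale. The Nr1h3 call held in 15 of 48 fits that left out 1 library, and with the plate term its adjusted p was 0.0796. Of 17 fatty acid synthesis genes, a group that SREBP1 drives, 1 was called in carriers (1.47% of all genes) and 1 for sex (4.28%): Gpam fell by 0.083 in Q140 carriers (adjusted p = 0.0442; 0.0952 with the plate term) and Thrsp by 0.20 in males (adjusted p = 0.00106). Without any 1 library Gpam was called in 24 of 48 fits.

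While genotype moved these genes little, many of them varied together from library to library. Correlations were computed over 48 libraries after group and sex means were removed from the log2 CPM. Of the 406 pairs of the 29 genes, 75 had a Pearson r over 0.5, or 18.5%, with a median r of 0.201. Among all pairs of the 11272 tested genes at or above the mean level of Idi1, 1.66% exceeded 0.5 and the median was 0.005. These pairs share libraries and depth, and genes are not independent of one another, so no p is given.

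The genes did not vary as 1 block. Sqle, Msmo1, Mvd, Insig1 and Stard4 each had 12 partners with r over 0.5, and Hsd17b7 and Acat2 had 11. At the other end Lbr, Pmvk, Ebp, Abca1, Ggps1, Insig2, Cyp46a1 and Tm7sf2 had none. The closest pairs were Insig1 with Hsd17b7 (r = 0.85), Hsd17b7 with Stard4 (0.815), and Cyp51 with Msmo1 (0.806), the demethylase and oxidase that act after lanosterol. Weaker relations linked the sensor genes with other members: Srebf1 with Apoe (0.615), Mvk with Scap (0.618) and Srebf2 with Scap (0.569). The lowest r was -0.406, between Ggps1 and Scap.

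**Figure D4:**
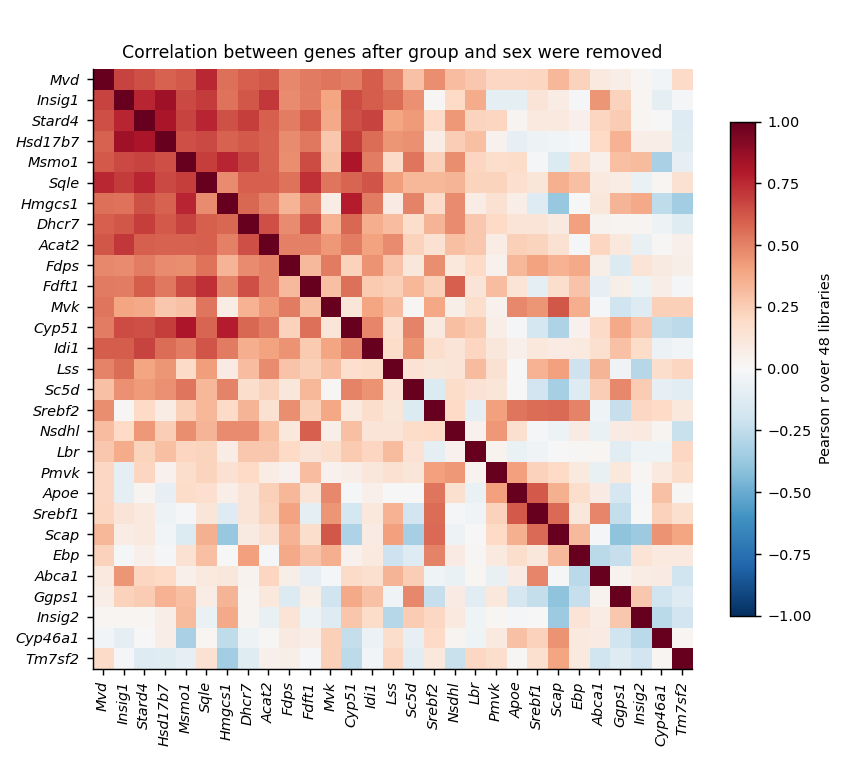
Pearson r between each pair of the 29 genes over 48 libraries after group and sex were removed, red for positive and blue for negative, ordered by the median r with the other genes. Synthesis genes with Insig1 and Stard4 fill the upper left, while Cyp46a1 and Tm7sf2 at the lower right have no partner over 0.5.

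For 12 relations a permutation test was run (100000 resamples, two-sided, adjusted over the 12), and 9 of them were with Hmgcs1. Hmgcs1 and Cyp51 had r = 0.786 and rho = 0.754 (permutation p = 1e-05 each, the smallest the resamples can give; adjusted p = 6e-05 and 4e-05), 0.736 without the 2 libraries farthest from the median, and 0.632 to 0.923 within the 6 plate columns. Hmgcs1 and Insig1 had r = 0.54 and rho = 0.60 (permutation p = 0.0001 and 1e-05, adjusted p = 0.0004 and 4e-05), 0.533 without 2 libraries and 0.052 to 0.918 within plate columns. Hmgcs1 and Idi1 had r = 0.523 and rho = 0.523 (permutation p = 0.00015 and 0.00014, adjusted p = 0.00045 and 0.00042), 0.519 without 2 libraries and 0.28 to 0.911 within columns. Hmgcs1 and Sqle had r = 0.471 and rho = 0.444 (permutation p = 0.0008 and 0.00158, adjusted p = 0.00192 and 0.00379) and 0.399 without 2 libraries, and r was above 0 in 5 of 6 columns. Over the plate columns these 4 relations kept their sign, apart from 1 column for Sqle.

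The relations of Hmgcs1 with the regulator Srebf2, with Apoe and with Cyp46a1 did not pass. Its r was 0.189 with Srebf2 (permutation p = 0.198, adjusted 0.264), 0.064 with Apoe (p = 0.663, adjusted 0.663) and -0.253 with Cyp46a1 (p = 0.0838, adjusted 0.126), with rho of 0.136, -0.005 and -0.227. With the oligodendrocyte markers Hmgcs1 had r = 0.353 and rho = 0.373 (permutation p = 0.0143 and 0.00862, adjusted p = 0.0286 and 0.0172), 0.282 without 2 libraries, above 0 in 6 of 6 columns, and 0.183 when group and sex were not removed. With the astrocyte markers r was 0.259 (permutation p = 0.076, adjusted 0.126). Apoe followed the astrocyte markers, with r = 0.712 and rho = 0.677 (permutation p = 1e-05 each, adjusted p = 6e-05 and 4e-05), 0.704 without 2 libraries and 0.314 to 0.90 within columns. Apoe and Abca1 had r = 0.08 (permutation p = 0.587, adjusted 0.64), and Cyp46a1 and the glutamatergic markers r = 0.101 (p = 0.493, adjusted 0.592). In 4 further relations, neither Hmgcs1 nor Insig1 passed with the mitochondrial share of counts or the library total (r from -0.215 to 0.168, permutation adjusted p = 0.38 each).

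Each of 9 landmarks was ranked against 11271 other genes by r. Hsd17b7, a sterol ketoreductase gene, and Stard4 were among the 5 genes nearest to Insig1, at 0.85 and 0.759. Opalin, 1 of the 10 oligodendrocyte markers, had rank 12 for Insig1 (r = 0.695), and no other of them was in its first 15. The part of oligodendrocyte content in the relations of Insig1 was not tested. For Insig1 and Hsd17b7 rho was 0.846, and r was 0.829 without the 2 libraries farthest from the median of Insig1. Within single genotypes of 8 libraries it ran from 0.428 in Msh3-/- to 0.968 in Q140 with Msh3+/-, and within plate columns from 0.654 to 0.982. The library with the least Insig1, the male M4 labelled Msh3+/-, had 54.1 CPM of Insig1, 23.2 CPM of Hsd17b7 and 36.3 CPM of Stard4. The library with the most, the male M3 of the same label, had 93.3, 29.1 and 42.5 CPM. Both ends lay within 1 genotype.

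Among the genes nearest to Sqle were Stard4 (r = 0.765), Mvd (0.757), Fdft1 (0.727) and Insig1 (0.701), and 12 of the other 28 genes of the set were among its first 50. Stard4 had 11 of the set among its first 50, Insig1 8 and Hmgcs1 3, led by Cyp51 and Msmo1. Abca1 had 1, and Apoe, Cyp46a1, Srebf1 and Srebf2 had none. The gene nearest to Cyp46a1 was Ncdn (0.678) and to Srebf2 Clip2 (0.824). These neighbours were picked as the highest of many and are given as a description with no p. Across genotypes the pair of Sqle and Stard4 had r from 0.493 in Msh3-/- to 0.936 in Msh3+/-, and that of Hsd17b7 and Stard4 from 0.416 in Msh3-/- to 0.973 in Q140. Whether these differ between genotypes was not tested.

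**Figure D5:**
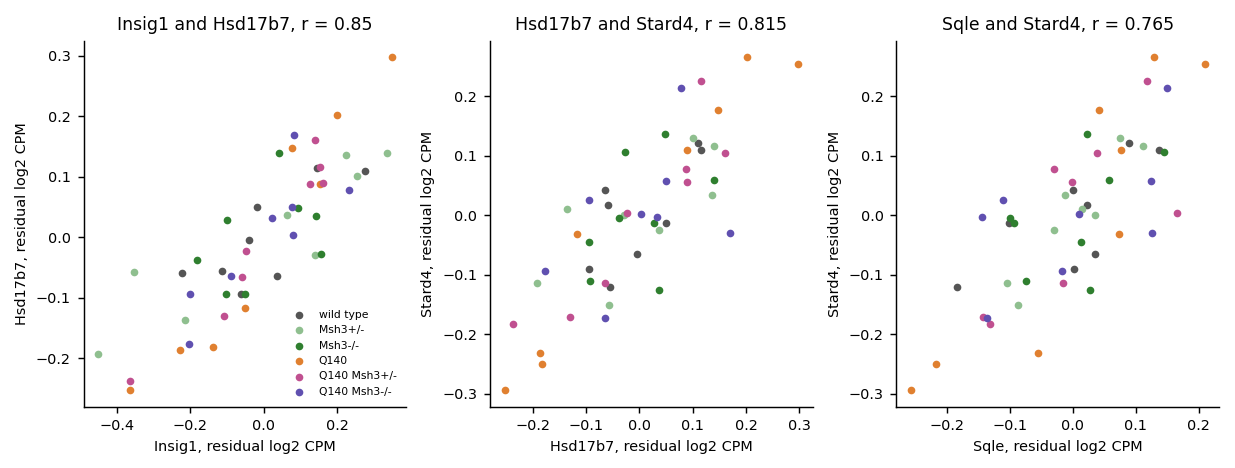
Residual log2 CPM, after group and sex were removed, of Insig1 against Hsd17b7, of Hsd17b7 against Stard4 and of Sqle against Stard4, 1 point per library coloured by genotype (n = 48). Over all libraries r was 0.85, 0.815 and 0.765. The 6 genotypes share the same mean here because group means were removed, so the plot cannot show differences between them.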

How the data were processed

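RNA from 48 mouse cortices was sequenced from TruSeq stranded libraries, per the labels' protocols. The submitters' processing notes list STAR 2.7.5c, SAMtools 1.10, HTSeq 0.12.3 and 2 names for a genome build, GRCm38 and mm10, with no roles. Strand setting and annotation release are not given in the sources used here. The authors deposited raw counts per gene, and FPKM that equal those counts over gene length and library total, as worked out from the values. Counts were tested and FPKM used only to compare levels between genes.

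Genes were filtered (filterByExpr, minimum count 10, minimum total 15), normalized by TMM and fitted in 1 edgeR 4.0.16 quasi-likelihood model (R 4.3.3) of 6 groups and sex over 48 libraries. P-values were two-sided and Benjamini-Hochberg adjusted over 19547 genes, with calls under 0.05. Intervals are 95%. Correlations used log2 CPM with a pseudocount of 0.5. Each library has a name of its own and was taken as 1 mouse; the labels do not state this, so p-values measure the spread between these samples, which may be partly technical; no 2 libraries of a group agreed within sampling noise. Replicate numbers were not used as pairs in the reported fit. Residuals of same-numbered libraries of different groups correlated over 0.1 in 6 of 120 pairs (median -0.021, highest 0.398). Those of other numbers and the same sex did so in 6 of 360 pairs (median -0.026, highest 0.163), so some pairing by number remains possible.

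The members and lists were chosen with earlier results of these data known. Named genes were those called, the 3 of smallest p in each comparison, and landmarks of each role. Marker lists of 12 cell types or tissues were summed. Alternatives were RLE, DESeq2 1.42.0, limma 3.58.1 voom with a name-prefix block, no filter, legacy dispersion, no sex term, plate column, replicate block, only the libraries compared, and fewer libraries. Positions are GENCODE M21 (GRCm38); promoters are RefSeq (GRCm38.p6). The model was checked on simulated data. Some genes of the other sterol list are not reported here.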

Additional observations from a re-analysis of the deposited data

Results flagged for a closer look

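Among the 174 combinations of a gene and a genotype of 8 libraries, 6 had a library far from the other 7; chance flags about 1 in 20 such groups. In Q140 with Msh3+/-, the female F1 was lowest for Hmgcs1, at 210 CPM against 241 in the nearest library, and for Fdps, at 9.17 against 11.7 CPM. In Msh3-/-, the female F3 was highest for Ebp, at 15.6 against 13.1 CPM. In wild type, the female F2 was lowest for Insig2, at 32.2 against 36.7 CPM, and the female F3 for Scap, at 81.6 against 94.1 CPM. In Q140 with Msh3-/-, the male M3 was lowest for Ggps1, at 34 against 37.7 CPM. No interaction passed its test for any of the 29 genes.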

How the results depend on the processing

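For the genes called and the 3 of smallest p in each comparison, no fitted log2 fold change changed sign. This covers 481 values outside the fits that left out 1 library, and leaves out the other members and landmarks. Over the whole set signs did change. In carriers against non-carriers 15 of 29 values lay above 0 with the plate column term, fewer than in the reported fit. The next counts add, for each of the genes so picked and its comparison, only 2 of the fits without 1 library. These are the fits that gave the lowest and highest log2 fold change. With these, values stayed on their side of the threshold 550 times and lost a call 23 times (Clu, Cyp7b1, Gpam, Acat1 and Nr1h3). A call was gained 2 times (Sqle and Fdft1). Over all 48 fits without 1 library, Cyp7b1 and Gpam were called in 24, Acat1 in 36 and Nr1h3 in 15. The number of the 29 genes called in Q140 carriers against non-carriers was 0, and 0 to 1 when single libraries were left out (Sqle, without the Q140 male M2). In males against females it was 1, and 2 with a plate column term (Lss and Fdft1). With the replicate block it was 0 in every genotype comparison and interaction and 1 for sex, and Nr1h3 lost its call (adjusted p = 0.0649). Calls over all genes moved further. Carriers against non-carriers had 288, and 102 with the plate term, 465 by DESeq2, 185 without the 2 libraries with most choroid plexus or pituitary transcripts (chosen after seeing the data) and 74 without 10 such libraries. Msh3-/- against Msh3+/+ had 42, and 91 with the replicate block, 159 by DESeq2 and 18 without the 10. Q140 against wild type had 20, and 11, 34, 13 and 7 with the plate term, by DESeq2, without the 2 and without the 10. Q140 with Msh3+/- against Msh3+/- had 10, and 17 with the block and 22 by DESeq2. Males against females had 837, and 421 without the 10. The 10 included the wild-type F4, M2, M3 and M4 and the Msh3+/- M1, M2 and M3. Groups were therefore smaller and unequal in those fits. Over the alternatives Msh3+/- against wild type had 1 to 10 (6 in the reported fit), Msh3-/- against wild type 13 to 23 (22), Q140 with Msh3-/- against Msh3-/- 2 to 5 (4), Q140 with Msh3+/- against Q140 4 to 7 (6) and Q140 with Msh3-/- against Q140 12 to 29 (20). Acat1 lost its call without a filter (edgeR adjusted p = 0.168). At 8 mice per group, differences of a few percent lie within the intervals.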
